A study of Mus musculus with 12 samples.

Results

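Skeletal muscle converts an action potential into contraction through a pair of calcium channels that face each other at the triad, where the transverse tubule meets the sarcoplasmic reticulum. The L-type channel of the tubule, known as the dihydropyridine receptor, acts as the voltage sensor, and the ryanodine receptor of the reticulum releases the stored calcium. The sensor consists of a pore subunit with a beta, an alpha2delta and a gamma subunit, and the adaptor STAC3 is needed for it to reach and couple to the release channel. In mature limb muscle the genes of this complex are Cacna1s (the pore and voltage sensor), Cacnb1 (beta), Cacna2d1 (alpha2delta), Cacng1 (gamma), Stac3 and Ryr1.

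The RNA levels of 10 genes of this machinery, of 23923 genes in the files, were compared between control and Smyd1 CKO mice. The genes were taken by symbol: the 6 above, the related alpha2delta genes Cacna2d3 and Cacna2d4, the related gamma gene Cacng6, and the second ryanodine receptor Ryr3. SMYD1 is a lysine methyltransferase of striated muscle. Control mice were Myf6 cre/+; Smyd1 flox/+ and thus kept 1 wild-type allele, and CKO mice were Myf6 cre/+; Smyd1 flox/-, on a C57BL6/J;129S1/SvImJ background, so that the Cre allele and a floxed allele were common to both groups. Cre is made from the Myf6 locus and recombines in myofibers from about birth, so cells of other types keep their floxed allele, and a Rosa26 YFP reporter was part of the breeding scheme. Total RNA of the tibialis anterior, a fast-twitch muscle of the lower leg, was sequenced from 6 mice per group at 6 weeks, with 1 library per mouse and males used by the study for this work. Values are FPKM, fragments scaled for the length of the transcript and the number of mapped reads, and so can be set side by side between genes. In whole muscle, fewer cells of a type and less RNA per cell cannot be told apart.

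The files hold no counts, but low FPKM fell on whole multiples of the value of 1 fragment, which placed the libraries within 1.8-fold of each other in depth. Smyd1 itself had means of 37.4 ± 5.64 and 34.1 ± 4.37 FPKM in controls and CKOs (SD, n = 6 each), and the groups overlapped. This value covers the whole gene, and the deleted part is not given in the sources used here, so it does not check the labels and all directions below follow them. The 12 fast-twitch marker genes were all detected. The summed FPKM of 10 slow-twitch marker genes ran from 45.05 to 95.76 in controls and from 66.79 to 395.4 in CKOs, with CKO 1, CKO 3 and CKO 6 above every control. Over the 12695 genes tested, which reached 0.1 FPKM in 6 or more libraries, the median log2 fold change (CKO minus control, of FPKM + 0.1) was 0.18 and 77.9% of the values were positive.

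The proximal promoters of the pore, beta subunit and release channel genes are printed first, because these genes build the core of the complex and were all well above the detection limit. Each run is the RefSeq window on GRCm38.p6 from 250 bases before to 50 bases after an annotated start, written 5′ to 3′ on the strand of the gene, and capitals mark each E-box (CANNTG, which reads alike on both strands), the core letters bound by myogenic basic helix-loop-helix factors.

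Cacna1s promoter, chr1:136052561-136052860, plus strand: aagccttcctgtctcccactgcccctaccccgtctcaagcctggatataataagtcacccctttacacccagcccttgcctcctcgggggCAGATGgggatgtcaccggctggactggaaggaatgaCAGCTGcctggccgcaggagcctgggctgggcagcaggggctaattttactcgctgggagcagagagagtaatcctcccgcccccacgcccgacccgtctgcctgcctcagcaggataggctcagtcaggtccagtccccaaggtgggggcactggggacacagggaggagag
Cacnb1 promoter at the more 3′ start, chr11:98018323-98018622, minus strand: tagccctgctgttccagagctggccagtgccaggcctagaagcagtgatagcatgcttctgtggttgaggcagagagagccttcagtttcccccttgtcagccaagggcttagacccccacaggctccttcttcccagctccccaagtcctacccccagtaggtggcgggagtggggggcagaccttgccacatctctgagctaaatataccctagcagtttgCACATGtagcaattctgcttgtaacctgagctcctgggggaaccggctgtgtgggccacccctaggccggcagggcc
Ryr1 promoter, chr7:29125102-29125401, minus strand: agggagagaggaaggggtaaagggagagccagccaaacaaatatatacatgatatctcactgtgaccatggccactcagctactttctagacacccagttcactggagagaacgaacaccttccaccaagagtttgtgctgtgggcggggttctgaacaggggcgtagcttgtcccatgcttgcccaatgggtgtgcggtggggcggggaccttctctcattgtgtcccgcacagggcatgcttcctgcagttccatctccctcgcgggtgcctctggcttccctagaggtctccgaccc

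Of the 10 genes, 6 had a window in this table, 7 windows in all. The Cacna1s window held 2 E-boxes, as did those of Cacng6 and Cacna2d3, the printed Cacnb1 window held 1, and a further Cacnb1 window and those of Cacna2d1 and Ryr1 held 0. An E-box stood in 72.3% of the 32851 windows of this length and at least 2 stood in 39.6%, so these counts are ordinary. No MEF2 or CArG motif was found in the 7 windows, against 3.2% and 1.6% of all windows.

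Among the 8 genes that passed the filter, 2 were higher and 1 was lower in CKOs at an adjusted P below 0.05 (limma, Benjamini-Hochberg over all genes tested). Cacnb1 and Cacng1 were the higher pair and Cacna2d4 was the lower one. Across all genes tested, 2.02% were called higher and 0.268% lower at this threshold. At an unadjusted P below 0.05, 5 of the 8 were higher and 1 was lower, where 18.1% and 1.76% of all genes were. The median log2 fold change of the 8 was 0.32, and 7 were positive. Cacna2d3 and Ryr3 did not reach 0.1 FPKM in any library and were not tested.

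**Figure D1:**
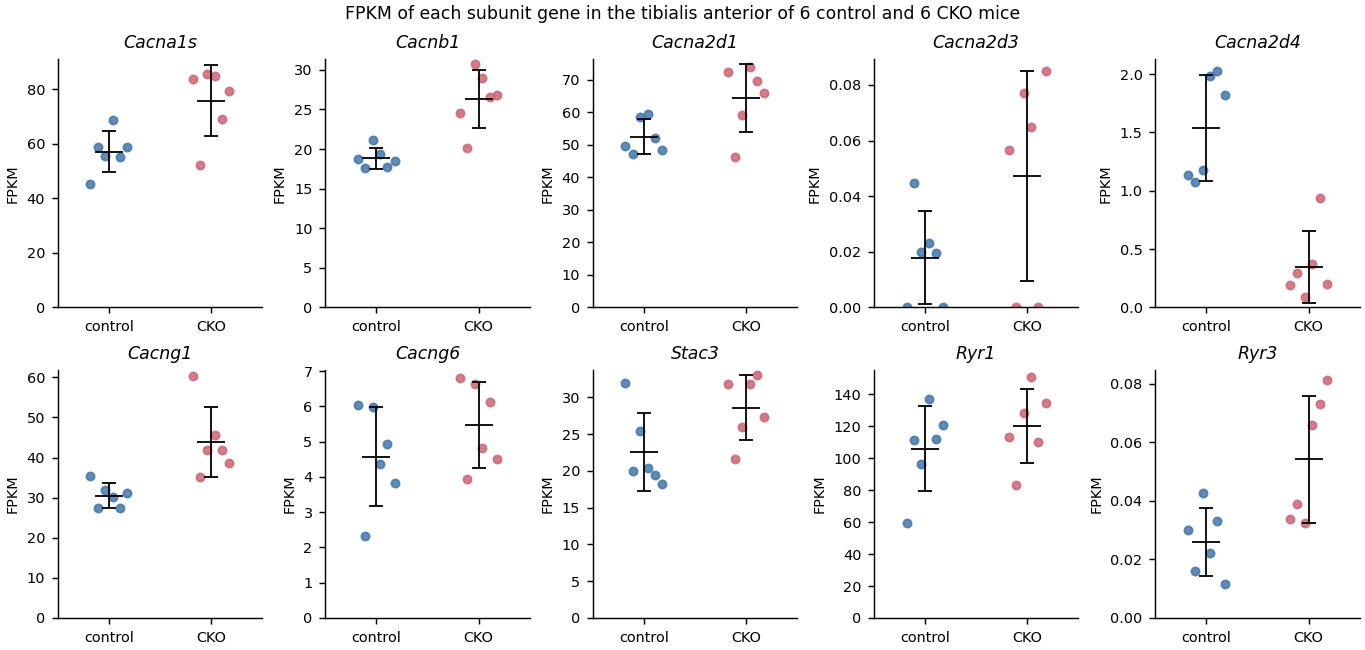
Each point is the FPKM of 1 gene in 1 mouse, with 6 controls (blue) and 6 CKOs (red); the bar and whiskers are the mean ± SD, and each vertical axis starts at 0. For Cacna2d4 the 6 CKO values lie below the 6 control values, and for the other 9 genes the groups overlap.

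Cacna1s, the pore and voltage sensor, lies at chr1:136052750-136119822 (GRCm38). It ranged from 45.28 to 68.64 FPKM in controls, with a median of 57.22, and from 52.26 to 85.78 FPKM in CKOs, with a median of 81.65. Of the 6 CKOs, 5 lay above every control, and CKO 2 lay within the control range. The means were 57.1 ± 7.55 and 75.9 ± 13.1 FPKM (SD, n = 6), and the log2 fold change of 0.40 (SE 0.13) had an adjusted P of 0.124 in limma. With the libraries brought to a common median ratio, it was 0.23 (adjusted P = 0.523 in limma). An antisense gene, Gm37759, shares 1309 exon bases with Cacna1s in this annotation, and whether fragments were assigned by strand is not given in the sources used here.

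Cacnb1, the beta subunit that carries the pore to the tubule and couples it to the release channel, rose (chr11:98001508-98023034). Controls were tight, between 17.54 and 21.17 FPKM with a median of 18.59, and CKOs were between 20.12 and 30.7 FPKM with a median of 26.68. Again 5 CKOs lay above every control, and CKO 2 was inside their range. The means were 18.9 ± 1.33 and 26.3 ± 3.69 FPKM (SD, n = 6), with a log2 fold change of 0.47 (SE 0.10, adjusted P = 0.0323 in limma).

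Cacng1, the gamma subunit of the muscle channel that limits its calcium current, rose as well (chr11:107703218-107716522). It was 27.33 to 35.3 FPKM in controls, with a median of 30.66, and 35.19 to 60.28 FPKM in CKOs, with a median of 41.91. CKO 1 was the highest and CKO 2 lay just under the highest control, which was the single overlap between the groups. The log2 fold change was 0.51 (SE 0.12, adjusted P = 0.0433 in limma).

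Both calls depended on the scale and on single libraries. When the libraries were brought to a common median ratio, which moved the median log2 fold change of all genes from 0.18 to 0.03, Cacnb1 was at 0.30 (adjusted P = 0.171 in limma) and Cacng1 at 0.34 (adjusted P = 0.119 in limma), and the calls over all genes were 103 higher and 78 lower in place of 257 and 34. Without the 3 CKO libraries high in slow-twitch genes, the values were 0.40 (adjusted P = 0.449) and 0.42 (adjusted P = 0.408), in a limma fit of 9 libraries that called 4 genes higher and 3 lower in all. The part of the slow-twitch genes in these values was not tested. With 1 library left out at a time, the Cacnb1 call held without control 1, control 3, CKO 2 or CKO 5 and was lost in the other 8 fits, and the Cacng1 call held without control 1, CKO 2 or CKO 5 and was lost in the other 9.

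Cacna2d1, the alpha2delta subunit of the muscle channel and the main one at the tubule, was close to Cacna1s in level. It ranged from 47.12 to 59.35 FPKM in controls, with a median of 50.85, and from 46.15 to 74.07 FPKM in CKOs, with a median of 67.7. The groups overlapped, with 4 CKOs above every control and CKO 2 below every control, and the log2 fold change of 0.28 (SE 0.12) had an adjusted P of 0.206 in limma. With median-ratio scaling it was 0.12 (adjusted P = 0.712 in limma).

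Cacng6, a gamma subunit gene of striated muscle, had means of 4.58 ± 1.41 and 5.47 ± 1.21 FPKM in controls and CKOs (SD, n = 6 each). Its 95% interval for the log2 fold change ran from -0.16 to 0.74, and the adjusted P was 0.453 in limma. Stac3, the adaptor of the voltage sensor, was 18.16 to 31.99 FPKM in controls, with a median of 20.17, and 21.64 to 32.99 FPKM in CKOs, with a median of 29.54. A single control, control 1, reached the level of the upper CKOs, and the other 5 controls lay between 18.16 and 25.48 FPKM. The log2 fold change of Stac3 was 0.35 (SE 0.15, adjusted P = 0.194 in limma), and without control 1 it was 0.46 (adjusted P = 0.0329 in limma). With median-ratio scaling it was 0.19 (adjusted P = 0.47 in limma).

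Ryr1, the calcium release channel of skeletal muscle, had the highest mean of the 10 genes in both groups and the lowest log2 fold change of the 7 positive ones (chr7:29003344-29125179). It ranged from 59.19 to 137 FPKM in controls, with a median of 111.6, and from 83.21 to 150.9 FPKM in CKOs, with a median of 121. Both groups covered most of the same range, and control 1 was the lowest of the 12 libraries. The log2 fold change was 0.20 (SE 0.19, 95% interval -0.20 to 0.60, adjusted P = 0.557 in limma). Without control 1 it was 0.04, and it turned to -0.03 after a correction for transcript length and GC content and to -0.17 with median-ratio scaling without control 1. Gm26604, an antisense gene, shares 864 exon bases with Ryr1.

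**Figure D2:**
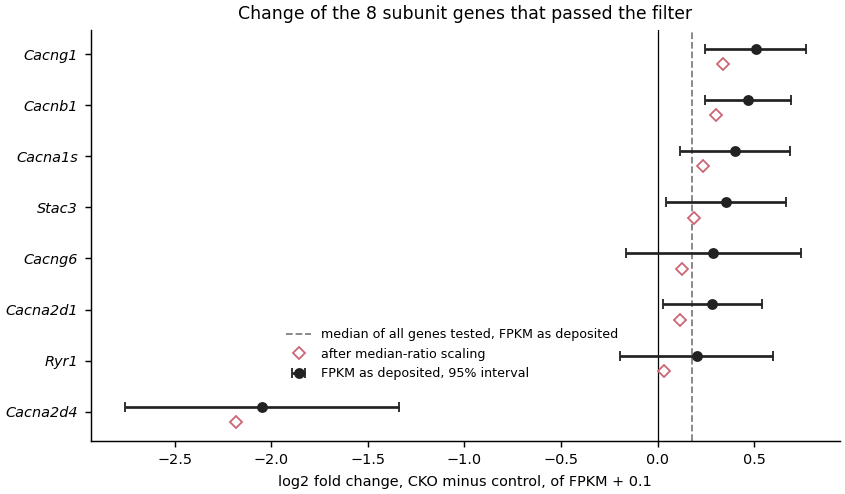
Log2 fold change (CKO minus control) of the 8 tested genes from FPKM as deposited (black, 95% interval) and after median-ratio scaling (open diamonds), with the median of all genes tested as a dashed line at 0.18. The interval of Cacna2d4 lies far below 0, and scaling moves each of the 8 values to the left.

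A single library was the lowest CKO throughout. CKO 2 had the lowest FPKM of the 6 CKOs in 7 of the 7 detected genes other than Cacna2d4 (Cacna1s, Cacnb1, Cacna2d1, Cacng1, Cacng6, Stac3 and Ryr1). Without it, the log2 fold change of Cacna1s was 0.50 (adjusted P = 0.0284 in limma), that of Cacna2d1 was 0.38 (adjusted P = 0.0617) and that of Ryr1 was 0.30 (adjusted P = 0.353). Of the embryonic and neonatal muscle markers, Actc1, the cardiac actin gene, was 314.3 FPKM in CKO 2 and 88.76 to 127.5 FPKM in the other 5 CKOs, against 114.6 to 251.6 FPKM in controls. The remaining 7 markers of that list did not stand apart in CKO 2, with a sum of 16.97 FPKM where the other CKOs had 14.36 to 58.54. As for the controls, control 1, lowest of the controls for Cacna1s and Ryr1 and highest for Cacng1, Cacng6 and Stac3, had a summed FPKM of 826.8 over 6 fibroblast markers where the other controls had 220.2 to 277.3. The part of these marker genes in the channel values was not tested.

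Of the alpha2delta genes, Cacna2d4 was the only one called. Cacna2d4, whose product is best known from retinal photoreceptors, lies at chr6:119236526-119352407. Its FPKM ran from 1.08 to 2.03 in controls, with a median of 1.499, and from 0.0858 to 0.940 in CKOs, with a median of 0.249. Every CKO lay below every control, and 0.189% of all genes tested were lower in this way. The highest CKO was CKO 5, well above the other 5. The mean was 4.43-fold lower in CKOs, and the log2 fold change of -2.05 (SE 0.33) had an adjusted P of 0.0061 in limma. That value is on the scale of FPKM + 0.1, which holds down changes of low genes, and it was -0.92 with a pseudocount of 1.

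The values of Cacna2d4 rested on few but countable fragments. Its FPKM gave 71 to 176 fragments per control library and 7 to 58 per CKO library, 713 and 157 over the 6 libraries of each group, all within 0.06 of a whole number. The CKO with the fewest was CKO 3.

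Cacna2d3, an alpha2delta gene of neurons, gave 5 fragments over the 6 controls and 16 over the 6 CKOs. It was listed at 0 in 2 libraries of each group and did not exceed 0.0849 FPKM. Of the 6 CKOs, 4 lay above every control, each with 4 fragments against 0 to 2 per control. With so few fragments a difference between the groups could not be judged. In a fit without the filter the log2 fold change of Cacna2d3 was 0.29 (adjusted P = 0.453 in limma). Cacna2d2, an alpha2delta gene that was not among the 10 and was looked at after its values were seen, gave 13 fragments in controls and 49 in CKOs, at 0.0310 and 0.0965 FPKM. Its log2 fold change without the filter was 0.55 (SE 0.17, adjusted P = 0.149 in limma).

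Set against the summed alpha2delta genes within each mouse, Cacna2d4 was likewise lower in CKOs. Cacna2d4 made up 2.84% ± 0.786 (SD, n = 6) of the summed FPKM of Cacna2d1, Cacna2d3 and Cacna2d4 in controls, with a range of 1.96% to 3.74%, and 0.530% ± 0.431 (SD, n = 6) in CKOs, with a range of 0.145% to 1.33%. The shares did not overlap, and the difference of -2.31 percentage points had P = 0.002165 in a two-sided exact permutation test over all assignments of the mice, the smallest P the test can give. Cacna2d1 held nearly all of the rest, 97.1% of the sum in controls and 99.4% in CKOs. The log2 ratio of Cacna2d4 to Cacna2d1 was -5.05 ± 0.392 in controls and -7.38 ± 0.820 in CKOs (SD, n = 6), 5.04-fold lower. The adjusted P over the 10 pairs of genes compared in this way was 0.0216 (exact permutation test), and the interval from inverting that test ran from -3.14 to -1.49. A ratio within a library does not move when a whole library is rescaled, apart from the small effect of the pseudocount.

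The ratio of Cacna2d4 to Cacna2d3 fell by 2.34 on the log2 scale (adjusted P = 0.0216, exact permutation test), but Cacna2d3 lay below the pseudocount, and with a pseudocount of 0.01 the adjusted P was 0.13. The ratio of Cacna2d3 to Cacna2d1 differed by 0.00 between the groups (interval -0.48 to 0.37) and was likewise set mostly by the pseudocount. The ratio of Cacna2d4 to Cacna2d1 is therefore the one of the 3 that both genes' fragments support.

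**Figure D3:**
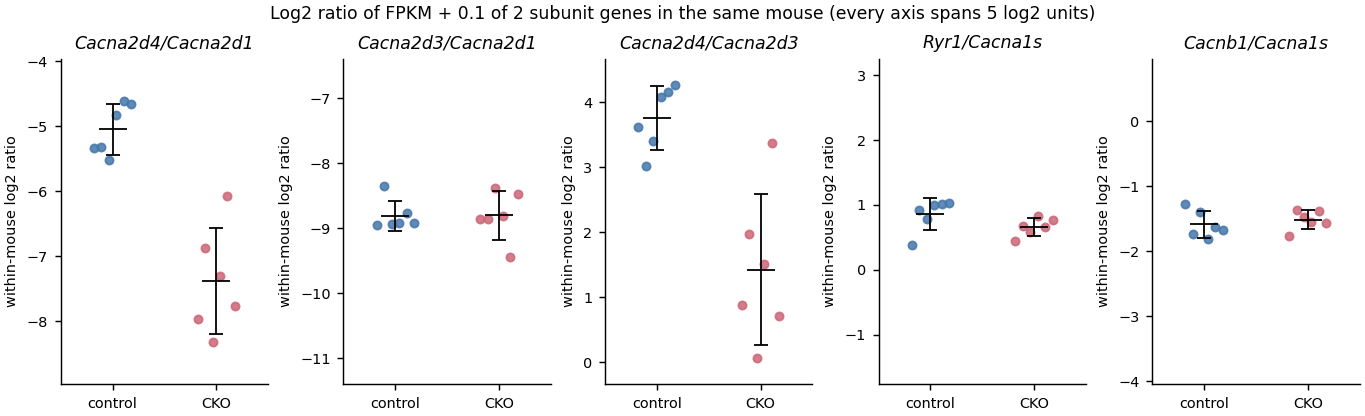
Each point is the log2 ratio of FPKM + 0.1 of a pair of genes in 1 mouse, for 6 controls (blue) and 6 CKOs (red), with the mean ± SD; each axis spans the same number of log2 units. The ratio of Cacna2d4 to Cacna2d1 separates the groups, whereas for Cacnb1 and Ryr1 relative to Cacna1s the groups overlap.

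The other genes were compared with the pore in the same way. Relative to Cacna1s, the log2 difference between CKOs and controls was 0.07 for Cacnb1 (interval -0.17 to 0.30), -0.12 for Cacna2d1 (-0.35 to 0.11), 0.11 for Cacng1 (-0.24 to 0.45) and -0.05 for Stac3 (-0.53 to 0.39). For Ryr1 it was -0.20 (-0.43 to 0.06), with an adjusted P of 0.411 over the 10 pairs (exact permutation test), and without control 1 it was -0.29 with an adjusted P of 0.0289. The ratio of Cacng6 to Cacng1 differed by -0.22 (-0.67 to 0.25). None of these 6 pairs passed the threshold with all 12 libraries. The intervals still allow a change of up to 1.36-fold upward for Cacng1 relative to Cacna1s. They also allow a fall to 0.629-fold for Cacng6 relative to Cacng1 and to 0.692-fold for Stac3 relative to Cacna1s.

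Ryr3, the release channel of neonatal muscle and diaphragm, was near 0 throughout. It gave 3 to 9 fragments per library in controls and 7 to 17 in CKOs, 31 and 69 in all, at 0.0117 to 0.0428 FPKM and 0.0323 to 0.0814 FPKM. The groups overlapped, with 3 CKOs above every control. In a fit without the filter its log2 fold change was 0.29 (SE 0.12, adjusted P = 0.256 in limma). The ratio of Ryr3 to Ryr1 differed by 0.08 (interval -0.45 to 0.58). Aven, on the opposite strand, shares 916 exon bases with Ryr3, whose transcript has 15468 bases. Aven was higher than Ryr3, at 3.57 FPKM in controls and 3.25 FPKM in CKOs. Any Ryr3 fragments on the shared bases cannot be told apart from Aven fragments unless strand was used. Where the Ryr3 fragments lie was not examined.

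The order of levels was the same in both groups: Ryr1, Cacna1s, Cacna2d1, Cacng1, Stac3, Cacnb1, Cacng6, Cacna2d4, Ryr3 and Cacna2d3. In controls the steps from Cacna1s to Cacna2d1 (exact sign-flip permutation test, P = 0.188), from Stac3 to Cacnb1 (exact permutation P = 0.0625) and from Ryr3 to Cacna2d3 (exact permutation P = 0.375) were not larger than the spread between mice. The same 3 steps missed the threshold in CKOs, with exact permutation P of 0.0625, 0.25 and 0.594. All other neighbors kept their order in 6 of 6 mice in each group, with P = 0.03125, the smallest value this exact permutation test allows. The order was taken from the group means of these same values, and the P were not adjusted. They describe the steps and do not test the order. The step from Cacng6 down to Cacna2d4 was 1.496 ± 0.617 log2 units in controls and 3.83 ± 0.936 in CKOs (SD, n = 6).

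Genes that lie within the alpha2delta genes were read beside them. Lrtm2 lies on the opposite strand within Cacna2d4 (chr6:119315133-119330766) and shares 0 exon bases with it. Its FPKM ran from 0.300 to 2.43 in controls, with a median of 0.994, and from 0.0956 to 0.745 in CKOs, with a median of 0.253. The groups overlapped through control 2, and 4 of 6 CKOs lay below every control. The log2 fold change was -1.58 (SE 0.40, adjusted P = 0.0549 in limma), against -2.05 for Cacna2d4, and the adjusted P of Lrtm2 was 0.0207 without CKO 5, 0.0229 without control 2 and 0.0349 without control 1, but 0.0666 to 0.136 in the other 9 fits with 1 library left out and 0.539 without the 3 CKO libraries high in slow-twitch genes. With quantile normalization the adjusted P of Lrtm2 was 0.0457, and with the length and GC correction it was 0.0409 (limma). With median-ratio scaling it was 0.05, and 0.0442 when control 1 was also left out (limma). The log2 ratio of Lrtm2 to Cacna2d4 differed by 0.47 between the groups (exact permutation test, P = 0.219, added after the values were seen). Lrtm1, on the opposite strand within Cacna2d3, was 11.9 ± 2.05 FPKM in controls and 8.97 ± 2.27 FPKM in CKOs (SD, n = 6), with a log2 fold change of -0.42 (adjusted P = 0.184 in limma), while Cacna2d3 itself was near 0.

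Among the CKOs, the libraries with the lowest Cacna2d4 were the ones with the highest slow-twitch sums. CKO 1, CKO 3 and CKO 6, whose summed FPKM over the 10 slow-twitch genes was 210, 151.9 and 395.4, had the 3 lowest Cacna2d4 values. Of those 10 genes, 8 were higher in CKOs at an unadjusted P and 0 at an adjusted one (limma). CKO 2, CKO 4 and CKO 5 had slow-twitch sums of 66.79 to 75.85, within the control range. Their Cacna2d4 values were 0.295, 0.371 and 0.940 FPKM, below the lowest control. Without CKO 1, CKO 3 and CKO 6 the log2 fold change of Cacna2d4 was -1.45 (adjusted P = 0.195 in limma), in the fit of 9 libraries described above. The part of the slow-twitch genes in the Cacna2d4 values was not tested. Neuron markers summed to at most 0.542 FPKM in controls and 0.780 FPKM in CKOs.

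**Figure D4:**
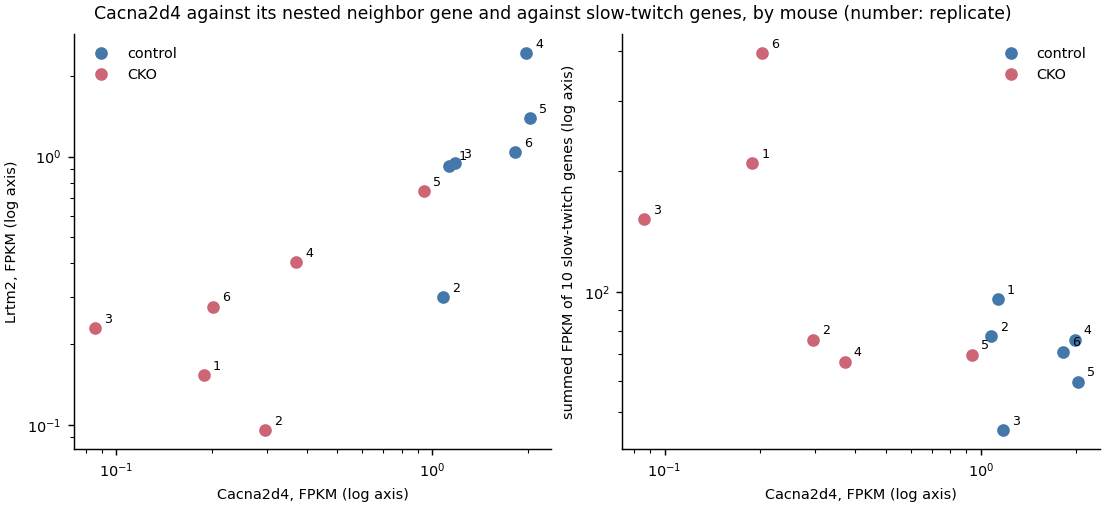
FPKM of Cacna2d4 on the horizontal axis against FPKM of Lrtm2 (left) and the summed FPKM of 10 slow-twitch genes (right), on log axes; each point is 1 mouse, numbered by replicate, with controls in blue and CKOs in red. The 3 CKOs with the highest slow-twitch sums lie furthest to the left, and CKO 5 lies nearest to the controls.

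The remaining subunits of voltage-gated calcium channels were scarce. Of 19 genes, 6 passed the filter and 4 (Cacna1f, Cacng2, Cacng3 and Cacng5) were listed at 0 in all 12 libraries. None of the 6 was called by limma at an adjusted or an unadjusted P below 0.05. The 3 with the smallest P were Cacna1a, the pore of neuronal P/Q-type channels, at 0.173 FPKM in controls and 0.243 FPKM in CKOs (log2 fold change 0.42, SE 0.25, adjusted P = 0.361 in limma), and the beta subunit genes Cacnb2 and Cacnb3, with log2 fold changes of 0.16 and 0.07.

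With FPKM as deposited, partners and regulators of the complex stayed closer to 0 than the channel genes did. Their median lay below that of all genes tested. Of 23 such genes, 19 passed the filter, with a median log2 fold change of 0.01 beside 0.18 for all genes tested and 0.32 for the 8 channel genes. None was called at an adjusted P and 1 at an unadjusted one (limma). Sepn1, a reductase of the reticulum that acts on the release channel, had a log2 fold change of 0.36 (adjusted P = 0.369 in limma). Casq1, the calcium buffer of the reticulum, and Trdn, which anchors it to the release channel, had 95% intervals of -0.27 to 0.30 and -0.21 to 0.33; they are named here after their values were seen.

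**Figure D5:**
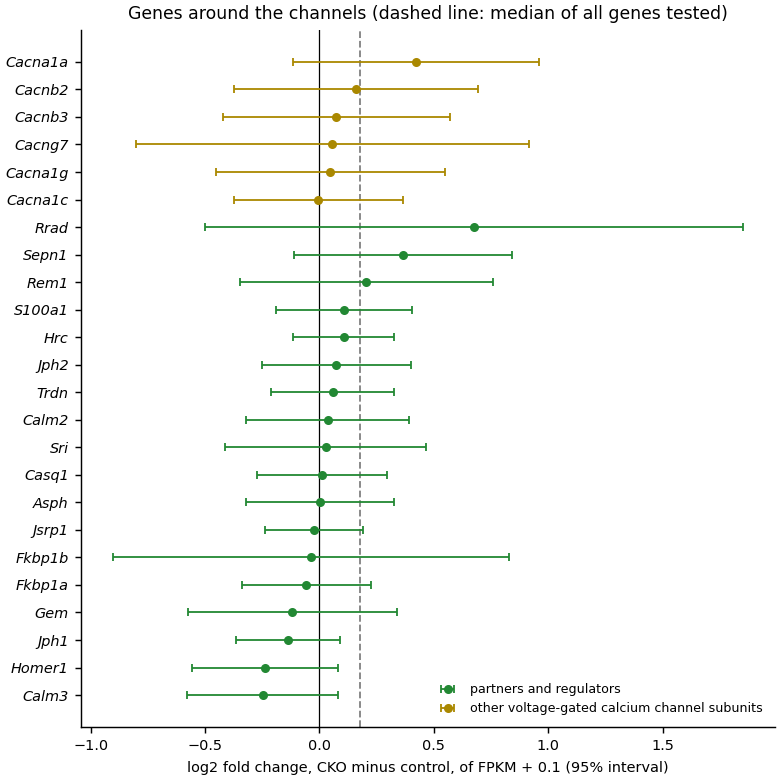
Log2 fold change (CKO minus control) with 95% interval of 18 tested partners and regulators (green) and of the 6 tested subunits of other voltage-gated calcium channels (yellow), with the median of all genes tested as a dashed line. The interval of each gene drawn includes 0. The partner called at an unadjusted P is among the 19 tested and is not drawn.

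Genes whose FPKM followed Cacna1s and Cacna2d4 closely over the 12 libraries are given as a description, since the points of 1 library share its depth and the group difference enters the coefficient. For Cacna1s they included Sptb, which encodes a spectrin (Pearson r = 0.946, Spearman rho = 0.944), Akap9 (0.910 and 0.825), Ern1 (0.910 and 0.909) and Mybbp1a (0.900 and 0.790), of 7968 genes compared. Within controls and within CKOs, the r of Sptb was 0.965 and 0.965. In the same order it was 0.53 and 0.973 for Akap9, 0.775 and 0.932 for Ern1, and 0.644 and 0.877 for Mybbp1a.

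For Cacna2d4 they included Gpcpd1, Hrasls, Smyd2 and B230312C02Rik, with r from 0.906 to 0.921 over 12 libraries, of 7969 genes compared. The r of these genes was 0.160 to 0.464 within controls and 0.618 to 0.978 within CKOs. Smyd2, a lysine methyltransferase of the same family as Smyd1, was 62.1 FPKM in controls and 24.1 FPKM in CKOs.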

How the data were processed

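RNA was sequenced from the tibialis anterior of 12 mice, 6 per group. The authors depleted ribosomal RNA, aligned reads with bowtie2 and TopHat2 2.0.10 with at most 2 mismatches, dropped multi-mapping reads and deposited FPKM from Cufflinks 2.1.1 (versions and the mm9 build per the submitters' processing notes), so close paralogs are uncertain. The authors tested counts with DESeq; counts were not used here. Each file held 23950 rows, of which 27 had a date as symbol and were left out.

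FPKM as deposited were compared with limma 3.58.1 (R 4.3.3, intensity trend, no block) on log2(FPKM + 0.1) for genes that reached 0.1 FPKM in 6 or more libraries. Ratios within a mouse and the alpha2delta share were compared by exact permutation tests in Python 3.11.15. Nothing in the labels says that same-numbered mice are related, and p-values measure the spread between mice. Fragments and relative depth (0.984 in CKO 5 to 1.77 in CKO 1, control 1 being the reference) were read from the steps between low FPKM; counts so read carry counting error only, and no fit used them. Positions and lengths came from GENCODE M21 (GRCm38) by symbol, promoters from RefSeq. The limma code was tested on simulated data. The genes and lists were chosen with earlier results of these data known. All 10 channel genes are named, with the 3 smallest P of each context list, genes over a member and the 5 closest genes to Cacna1s and Cacna2d4. A few genes named by these criteria are not reported here and were not replaced. Alternatives were other pseudocounts, filters and scalings, a length and GC correction, sample weights, no trend, the replicate number as a block, and libraries left out. Marker lists for other cell types were summed per library. Of 6 smooth muscle, 6 endothelial and 5 macrophage genes tested, 0 were higher at an unadjusted P (limma). Of 6 Schwann cell, 3 adipocyte and 6 fibroblast genes tested, 2 in each list were. None of these genes was higher at an adjusted P. Of 12 fast-twitch genes, 3 were higher at an unadjusted P and 1 at an adjusted one (limma). For 7 embryonic and neonatal genes these counts were 6 and 2.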

Additional observations from a re-analysis of the deposited data

Results flagged for a closer look

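Of 42 sets of 6 values tested for a sample far from the others, 2 held one, and chance flags about 1 in 20 such sets. Cacna2d4 in CKO 5 was 0.9398 FPKM, where the other 5 CKOs lay between 0.0858 and 0.371 FPKM. CKO 5 was also the library of lowest relative depth (0.984), and its value rested on 58 fragments, the most of any CKO. The log2 ratio of Cacna2d3 to Cacna2d1 in control 2 was -8.351, where the other controls lay between -8.954 and -8.771. That ratio rests on 2 fragments of Cacna2d3 against 0 or 1 in the other controls.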

How the results depend on the processing

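Cacna2d4 was called lower under all 10 planned settings and in each fit with 1 library left out (-2.34 to -1.84), and its call was lost (-1.45) without the 3 CKO libraries high in slow-twitch genes, a setting added after the values were seen, which left 0 channel genes called lower against 1 to 1 with 1 library left out. The calls of Cacnb1 and Cacng1 depended on the setting. Cacnb1 lost its call with median-ratio scaling (0.30), quantile normalization (0.37), the length and GC correction (0.28), no trend (0.47), that correction with the replicate block (0.28), without the 3 libraries (0.40), with median-ratio scaling without control 1 (0.26, also added) and in 8 of 12 fits with 1 library left out (0.42 to 0.54). Cacng1 lost its call in these (0.34, 0.41, 0.32, 0.51, 0.32, 0.42 and 0.34), with no filter (0.51) and in 9 of 12 (0.41 to 0.57). Channel genes called higher were 1 with no filter, 4 with sample weights, 0 under the other settings named for Cacnb1, and 0 to 3 with 1 library left out; at an unadjusted P they were 2 or 3 under the scalings and corrections, 2 without the 3 libraries and 3 to 5 with 1 left out. Sample weights added Cacna1s (0.41, adjusted P = 0.0358 in limma) and Stac3 (0.45, adjusted P = 0.0268 in limma). Over 12 fits the range was 0.34 to 0.50 for Cacna1s, 0.24 to 0.38 for Cacna2d1, 0.11 to 0.38 for Cacng6, 0.30 to 0.46 for Stac3 and 0.04 to 0.30 for Ryr1. With median-ratio scaling, the values were 0.23 for Cacna1s, 0.12 for Cacna2d1, 0.13 for Cacng6, 0.19 for Stac3 and 0.04 for Ryr1. With the length and GC correction, Cacna1s was at 0.18, Cacna2d1 at 0.09, Cacng6 at 0.11 and Stac3 at 0.17. Ryr1 turned to -0.03 with the length and GC correction, with or without the block, and to -0.17 with median-ratio scaling without control 1. Why these values moved was not tested.

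Over all genes, the calls were 170 higher with no filter, 103 higher and 78 lower with median-ratio scaling, 101 and 68 with quantile normalization, 97 and 94 with the length and GC correction, 99 and 90 with that and the block, 1400 and 115 with sample weights, 4 and 3 without the 3 libraries, 164 lower with median-ratio scaling without control 1, and 88 to 1075 higher and 18 to 69 lower with 1 library left out. Partners and regulators called were 1 under those scalings, the correction and sample weights, and 0 to 1 with 1 library left out; other calcium channel subunits stayed at 0 to 0.

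Of the ratios, Cacna2d4 to Cacna2d1 kept its call with 1 library left out (-2.60 to -2.15), as did Cacna2d4 to Cacna2d3 (-2.73 to -2.07), which lost it with a pseudocount of 0.01 (-3.21). Cacna2d3 to Cacna2d1 turned to -0.24 and Ryr3 to Ryr1 to -0.16 with a pseudocount of 1, and with 1 library left out they ran from -0.08 to 0.13 and from -0.01 to 0.25. Stac3 to Cacna1s ran from -0.13 to 0.12, Cacnb1 from 0.02 to 0.13, Cacna2d1 from -0.16 to -0.06, Cacng1 from 0.04 to 0.21, Ryr1 from -0.29 to -0.15, Cacng6 to Cacng1 from -0.37 to -0.14, and the Cacna2d4 share from -2.49 to -2.13 points.

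Correlations of same-numbered deviations ran from -0.09 to 0.16, which does not settle whether the replicate numbers pair the mice. With the replicate block, limma called 272 genes higher and 40 lower. The block lowered the SE of each tested channel gene, for Cacna2d4 from 0.33 to 0.24 and for Cacng6 from 0.21 to 0.11. Cacng6 stayed at 0.29, with an unadjusted P of 0.0265 and an adjusted P of 0.181 (limma). The ratios of Cacna2d4 to Cacna2d1 (-2.33) and to Cacna2d3 (-2.34) then had an adjusted P of 0.156, since a sign-flip permutation of 6 pairs cannot go below 0.03125.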
